A study of Mus musculus with 6 samples.

Results

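Mcm2, Mcm3, Mcm4, Mcm5, Mcm6 and Mcm7 encode the 6 subunits of the MCM2-7 ring, the replicative helicase. They were followed in CAD cells, which the labels give as mouse neuroblastoma cells and which are known as a catecholaminergic line, after transfection with a microRNA plasmid. All probe sets assigned to these 6 genes by the platform annotation were taken, each on its own: 19 of the 45101 probe sets on the array, and 6 of the 18194 genes with at least 1 probe set of a single gene. RNA came from 3 biological replicates transfected with the RIPmiR-124a-2 plasmid, which expresses the miR-124a-2 form of miR-124, a microRNA abundant in brain, and from 3 transfected with the RI vector without insert (empty vector). Both groups are the same cell line, so every value describes 1 line. The time after transfection and the share of cells that took up plasmid are not given in the sources used here.

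The 6 Mcm proteins are related ATPases that form a closed ring around DNA. In G1 the origin recognition complex (Orc1 to Orc6), Cdc6 and Cdt1 load the ring on origins in an inactive form, a step called licensing. In S phase the kinases Cdc7 and Cdk2 act on the loaded ring, which joins Cdc45 and the GINS complex to become the active helicase that unwinds DNA ahead of the polymerases. Transcription of the Mcm genes is known to follow E2F factors and to be high in cycling cells and low in cells that have left the cell cycle. Neurons leave the cycle as they differentiate, and miR-124 is known for its rise in that period.

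Stretches around the start sites of the Mcm genes are shown because all 6 genes had lower means with the plasmid and because E2F sites are a known regulatory element of Mcm genes. Any part of E2F in the lower means was not tested. RefSeq windows (GRCm38.p6, 250 bases before to 50 after each start) were found for 5 of the 6 members; Mcm4 was not matched. E2F sites were searched on both strands as the words TTTGGCGC, TTTCGCGC, TTTCCCGC and TTTGCCGC, which can overlap each other when they lie on opposite strands. At least 1 word was found for 4 of the 5 members, Mcm3, Mcm5, Mcm6 and Mcm7, against 2.6% of 27025 genes with a window. Capitals mark the words, positions count from the start site, and all sequences run 5′ to 3′ on the strand of the gene.
Mcm6, chr1:128359706-128359825, minus strand: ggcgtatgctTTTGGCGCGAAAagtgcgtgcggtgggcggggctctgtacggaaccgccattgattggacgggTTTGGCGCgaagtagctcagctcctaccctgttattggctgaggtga
Mcm5, chr8:75109332-75109391, plus strand: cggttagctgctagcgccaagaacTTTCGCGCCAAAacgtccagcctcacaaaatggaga
Mcm7, chr5:138172017-138172072, minus strand: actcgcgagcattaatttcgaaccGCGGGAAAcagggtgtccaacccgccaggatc
Mcm7, chr5:138171854-138171873, minus strand: acgacgTTTCGCGCcaattt
Mcm3, chr1:20820280-20820299, minus strand: tccgtgGCGGGAAAacttgg
Mcm3, chr1:20820263-20820280, minus strand: ggaagtTTTGGCGCcaag
Mcm2, chr6:88898781-88898900, minus strand: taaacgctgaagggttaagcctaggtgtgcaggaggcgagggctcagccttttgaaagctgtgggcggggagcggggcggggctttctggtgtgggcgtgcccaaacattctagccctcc

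Mcm6 held 3 words, a pair that overlap on opposite strands from -110 to -99 and a single one from -47 to -40. Mcm5 held an overlapping pair as well, from -153 to -142. Mcm7 has 2 start sites in the table, and the words lay only in the window of the one farther upstream, from -165 to -158 and from 17 to 24. In Mcm3 both words lay after the start, from 20 to 27 and from 39 to 46. No E2F word was in the Mcm2 window, whose last 120 bases are printed for comparison; these hold the GC box word GGGCGG at -58 to -53 and -46 to -41. The CCAAT box word CCAAT was found for all 5 members with a window and 41.1% of all genes, and GGGCGG for 4 of the 5 and 38.2% of genes, both strands searched. A match is a description of the letters, not a measured site.

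With the miR-124a-2 plasmid, every probe set of Mcm2 to Mcm7 had a lower mean than with the empty vector (19 of 19, against 49.3% of all probe sets). In 17 of the 19, all 3 plasmid arrays lay below all 3 empty vector arrays, as did 6.96% of all probe sets. The median log2 fold change of the 19 was -0.55, while that of all probe sets was 0.00234. In limma with Benjamini-Hochberg adjustment over all 45101 probe sets and a threshold of 0.05, 2 of the 19 fell, 1 of Mcm2 and 1 of Mcm5, and none rose; 0.208% of all probe sets were called lower. Of the 17 that did not pass, 16 had an unadjusted p under 0.05, all of them lower, as had 4.76% of all probe sets in that direction. Values throughout are log2 RMA expression values, on which a difference of 1 is a doubling, and errors of a fold change are standard errors.

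**Figure D1:**
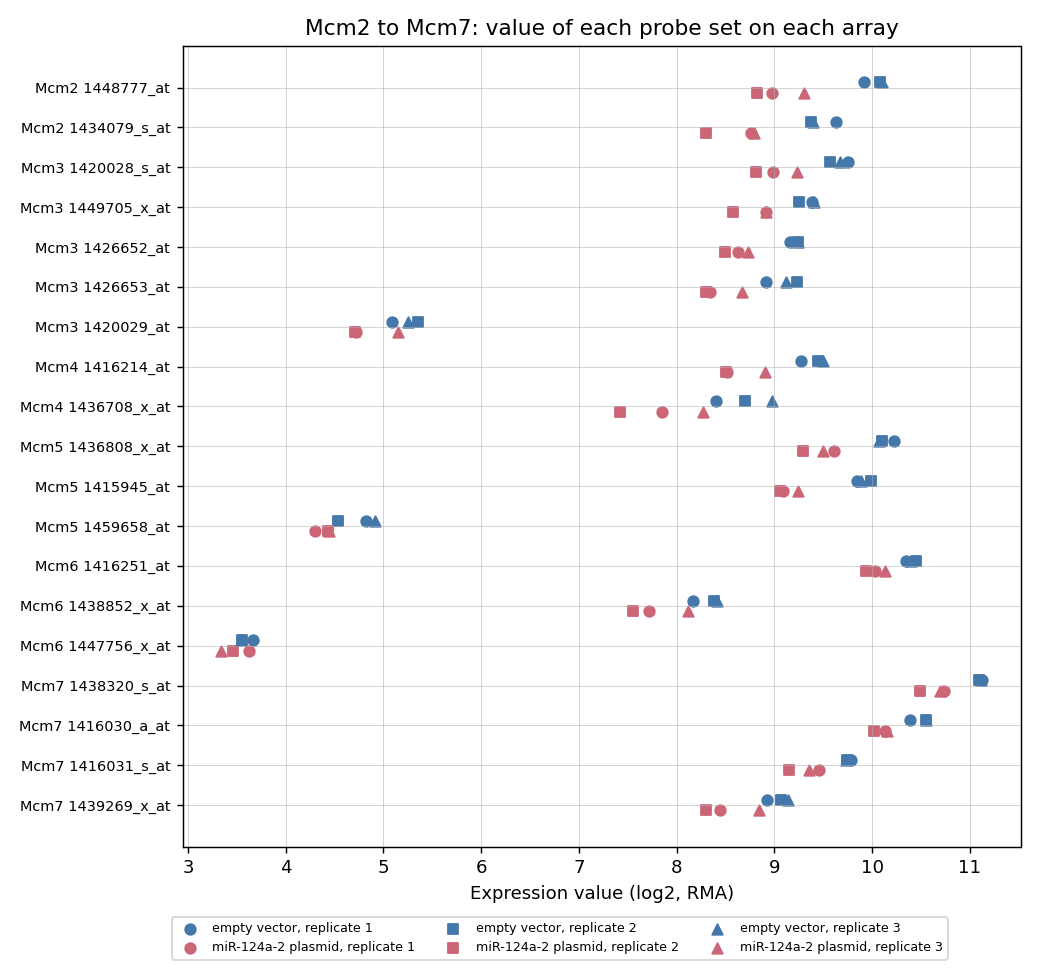
Expression value (log2, RMA) of each of the 19 probe sets of Mcm2 to Mcm7 on each of the 6 arrays, empty vector in blue and miR-124a-2 plasmid in red, with 1 marker shape per replicate number. In 17 of the 19 probe sets the red markers all lie to the left of the blue ones.

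Mcm2, which with Mcm5 forms the gate through which DNA enters the ring, had the lowest log2 fold change of the 6 genes at their brightest probe sets. Its probe set 1448777_at read 9.92, 10.08 and 10.10 on the empty vector arrays and 8.98, 8.82 and 9.30 on the plasmid arrays. The lowest empty vector array was 0.62 above the highest plasmid array. It fell by 0.999 (SE 0.14, adjusted p = 0.0383), or 2.0-fold, from a mean of 10.03 ± 0.10 to 9.04 ± 0.25 (SD, n = 3 per group). Among all 45101 probe sets this was the change ranked 114 from the lowest. The other Mcm2 probe set, 1434079_s_at, read 9.63, 9.37 and 9.40 against 8.76, 8.30 and 8.79, again without overlap. At -0.85 ± 0.15 it missed the threshold (adjusted p = 0.0878).

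Mcm5, the other side of that gate, has 3 probe sets. On 1415945_at the empty vector arrays read 9.84, 9.99 and 9.89 and the plasmid arrays 9.09, 9.05 and 9.24. The groups were 0.60 apart at their nearest arrays. The fall of 1415945_at passed the test, a 1.72-fold difference (-0.78 ± 0.098, adjusted p = 0.0285) from 9.91 ± 0.07 to 9.13 ± 0.10 (SD, n = 3 per group). The brightest Mcm5 probe set, 1436808_x_at, read 10.22, 10.11 and 10.07 against 9.61, 9.29 and 9.50. The groups did not overlap, and the difference, -0.67 ± 0.11, missed the threshold (adjusted p = 0.0700). The third, 1459658_at, was dim (4.30 to 4.91 over the 6 arrays) and had -0.36 (adjusted p = 0.406).

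Both calls were lost with some arrays left out and under 1 other scaling. With 1 array left out, both passed in limma only without plasmid replicate 3 (adjusted p = 0.0116 for Mcm2 and 0.0195 for Mcm5), where 352 probe sets passed in all. Without any other array neither passed. Log2 fold changes then ran from -1.06 to -0.89 for Mcm2 and from -0.81 to -0.74 for Mcm5, with adjusted p-values of 0.0821 to 0.268. Of all probe sets, 12 passed without plasmid replicate 2 and 0 without plasmid replicate 1 or any 1 empty vector array. Losses in these fits were thus not particular to Mcm2 and Mcm5. Median centring of the 6 arrays also lost both (adjusted p = 0.0864 for Mcm2 and 0.0646 for Mcm5), with directions kept, and the range of adjusted p-values over all alternatives was 0.00691 to 0.301. When 1 probe set per gene (the brightest) was tested and adjusted over 18194 genes, 3 of the 6 genes passed, Mcm2 (adjusted p = 0.0177), Mcm4 (adjusted p = 0.0428) and Mcm5 (adjusted p = 0.0367), against 0.698% of all genes called lower in that fit.

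Mcm4 is a subunit of the trio with Mcm6 and Mcm7 that has helicase activity on its own. Its brighter probe set, 1416214_at, read 9.27, 9.45 and 9.50 with the empty vector and 8.51, 8.51 and 8.91 with the plasmid. The groups were separate, and the log2 fold change was -0.76 ± 0.13 (adjusted p = 0.0872). The second, 1436708_x_at, had the widest spread of all members, with 8.40, 8.70 and 8.98 against 7.85, 7.42 and 8.27. The nearest arrays of its groups were 0.13 apart, and -0.84 ± 0.23 did not pass (adjusted p = 0.256).

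Mcm3, which pairs with Mcm5 in the ring, has 5 probe sets, and 4 of them had log2 fold changes between -0.66 and -0.55. On 1426652_at, the one of these 4 with the smallest error, the arrays read 9.16, 9.24 and 9.25 against 8.63, 8.49 and 8.73. The groups did not overlap, and -0.60 ± 0.10 did not pass (adjusted p = 0.0704). The brightest, 1420028_s_at, read 9.76, 9.57 and 9.67 against 8.98, 8.81 and 9.23 (log2 fold change -0.66 ± 0.13, adjusted p = 0.106). The dim probe set 1420029_at (4.71 to 5.35) had overlapping groups and -0.37 (adjusted p = 0.514).

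Mcm6, in the same trio as Mcm4, had the log2 fold change nearest to 0 of the 6 genes at their brightest probe sets. On 1416251_at the empty vector arrays read 10.35, 10.45 and 10.40 and the plasmid arrays 10.03, 9.94 and 10.13. These groups were narrow and separate, 0.22 apart at their nearest arrays, and the difference, -0.37 ± 0.095, missed the threshold (adjusted p = 0.238). On 1438852_x_at the values were 8.17, 8.38 and 8.42 against 7.72, 7.55 and 8.12 (-0.53 ± 0.15, adjusted p = 0.318). The third probe set, 1447756_x_at, lay at 3.34 to 3.66, near the 3.37 to 3.50 that control probe sets for a transcript not added to the samples averaged, and its groups overlapped (-0.11, adjusted p = 0.907).

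Mcm7, whose gene is known to carry the microRNA genes Mir25, Mir93 and Mir106b in an intron, had 4 probe sets with log2 fold changes between -0.52 and -0.40. The brightest, 1438320_s_at, read 11.13, 11.09 and 11.11 with the empty vector and 10.73, 10.49 and 10.70 with the plasmid. The empty vector arrays lay within an SD of 0.020, and the groups were 0.36 apart. The mean was 1.38-fold lower with the plasmid (-0.47 ± 0.10), which missed the threshold (adjusted p = 0.138). The 3 others also had separate groups, with adjusted p-values of 0.197 to 0.302.

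**Figure D2:**
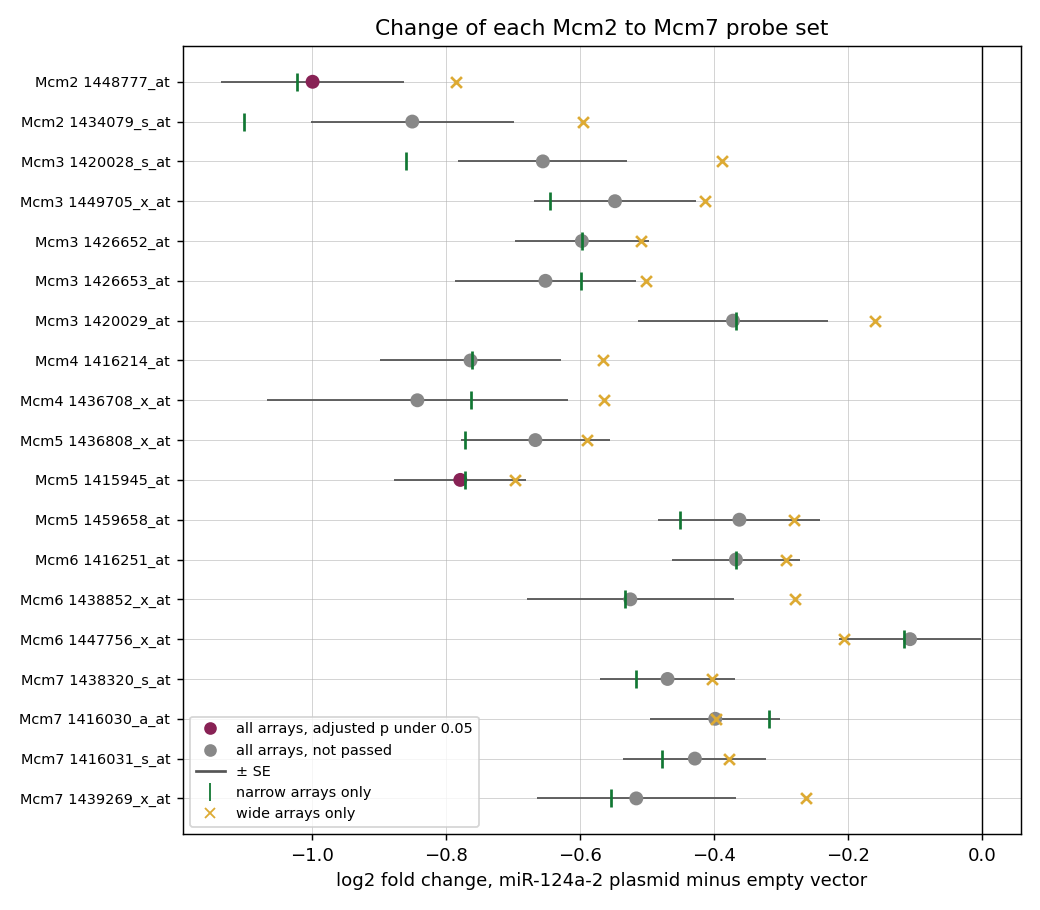
Log2 fold change (miR-124a-2 plasmid minus empty vector) of each Mcm2 to Mcm7 probe set with its standard error from limma, purple where the adjusted p was under 0.05, beside the values found when only the narrow or only the wide arrays were compared (3 arrays each, by the spread of all values). All 19 points lie below 0 on every scale drawn. The values over all 6 arrays run from -0.999 for Mcm2 1448777_at to -0.11 for Mcm6 1447756_x_at.

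Whether the members changed unequally was asked within arrays, as the difference between 1 member and the mean of the other 5, each at its brightest probe set. For Mcm2 the change differed by -0.41 from that of the others on the log2 scale, and its value relative to them was lower on all 3 plasmid arrays (-0.59, -0.59 and -0.39) than on all 3 empty vector arrays (-0.22, -0.05 and -0.05). For Mcm6 and Mcm7 it differed by 0.34 and 0.22, also without overlap between groups. For each of these 3 the exact permutation test over arrays gave p = 0.1, two-sided, the smallest that 3 against 3 arrays allow, so none could reach 0.05, and 0.2 after adjustment over the 6 members. Mcm3, Mcm4 and Mcm5 differed from the others by -0.0023, -0.13 and -0.016 (adjusted exact p = 1, 0.45 and 1). Less bright probe sets of the same genes were not compared in this way. Their log2 fold changes were -0.85 for Mcm2, -0.53 and -0.11 for Mcm6 and -0.52 to -0.40 for Mcm7.

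The arrays differed in the spread of all their values. Empty vector replicate 1 and plasmid replicates 1 and 2 had narrower value distributions (interquartile ranges of 3.06 to 3.10, against 3.26 to 3.35), and each of these sets holds both groups unequally. Compared within each group and then averaged, Mcm probe sets read a median of 0.12 higher on the wide than on the narrow arrays (-0.16 to 0.54, above 0 in 16 of 19), against -0.032 over all probe sets. Within the narrow arrays all 19 probe sets were lower with the plasmid (median -0.60), and within the wide arrays all 19 were as well (median -0.40), with the larger change in the narrow arrays for 17. Where the groups did not overlap over all arrays, the direction within each set could not differ. The narrow values rest on 1 empty vector array and the wide values on 1 plasmid array. With this division as a block in limma, 6 of the 19 probe sets fell, and 0.69% of all probe sets did. The largest gaps between the sets were in Mcm2 1434079_s_at (-1.10 narrow, -0.60 wide) and Mcm3 1420028_s_at (-0.86 narrow, -0.39 wide).

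The order of the arrays was shared by most members. Plasmid replicate 2 was the lowest plasmid array in 17 of the 19 probe sets, and plasmid replicate 3 the highest in 15. Among empty vector arrays the order differed in part between kinds of probe set, which was not tested. Affymetrix marks with _s_at and _x_at probe sets whose probes may also match other transcripts. In the 9 probe sets without these marks, empty vector replicate 1 was the lowest of its group in 8, while in the 10 with them it was the highest in 6 and the lowest in 3. The replicate 1 arrays also had the highest log2 ratios of 3′ to 5′ signal at the transferrin receptor controls (1.34 and 1.55, against 0.95 to 1.09); the part of this in the order of arrays was not tested. Values spread more among plasmid than among empty vector arrays in 17 of the 19 probe sets, against 61.2% of all probe sets.

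Other genes with nearly the same course over the 6 arrays were found by the root mean square difference between their array-centred profile and the mean profile of the 6 members, among 2089 genes with a mean of at least 7 and a range of at least 0.5. The 6 nearest were Pip4k2c, a phosphoinositide kinase (0.040), Rsu1 (0.042), Rrm2, a subunit of the ribonucleotide reductase that makes deoxynucleotides for DNA synthesis (0.045), Jpt2 (0.048), the peptidase gene Thop1 (0.049) and Aunip (0.052), all on the log2 scale. The distances of the members from their own mean were 0.068 for Mcm3 to 0.19 for Mcm2. The 6 genes were picked as the smallest distances among 2089 and the members were not, so these distances are not a like comparison. Log2 fold changes of the 6 nearest genes were -0.70 to -0.64. These follow from the choice by profile and are not a separate result. Likeness here is a description over 6 arrays that include both groups.

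**Figure D3:**
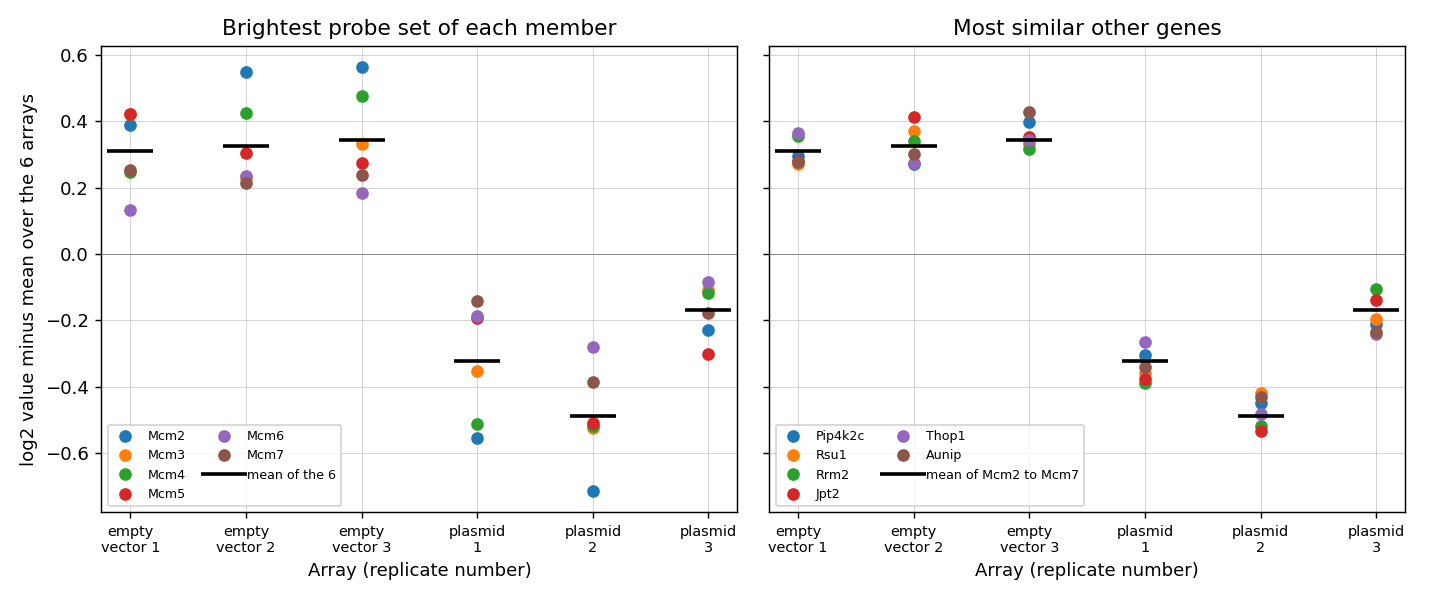
Log2 value minus the mean over the 6 arrays, for the brightest probe set of each of Mcm2 to Mcm7 (left) and for the 6 other genes with the most similar profile (right), by array; black bars give the mean of the 6 members on each array. In both panels the empty vector arrays lie above 0 and the plasmid arrays below, with plasmid replicate 2 lowest in the mean (-0.49) and plasmid replicate 3 nearest to 0 (-0.17). On the right this follows from the choice by profile.

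Genes that load the ring were read next, each gene at its brightest probe set. Among 10 licensing genes there were 2 that fell and none that rose, while 6 had an unadjusted p under 0.05, all lower; over all 18194 genes 0.335% were called lower and 0.0879% higher. At an unadjusted p under 0.05, 5.59% of all genes were lower, and in 7.76% every plasmid array lay below every empty vector array, the shares to set beside the counts of each list. Orc2, a subunit of the origin recognition complex, read 8.50, 8.86 and 8.70 against 7.53, 7.58 and 7.70. The groups were 0.81 apart, and it fell by 1.08 (SE 0.12, adjusted p = 0.0196). Cdc6, the ATPase that brings the Mcm ring to the origin, read 8.19, 7.98 and 8.07 against 6.94, 6.49 and 7.15. Its groups were 0.83 apart, and it fell by 1.22 (SE 0.17, adjusted p = 0.0383; -1.47 narrow, -0.87 wide). The median of the list was -0.42, that of all genes 0.015. Both calls were lost in limma without any 1 array other than plasmid replicate 3, fits in which 0 or 12 of all probe sets passed. Adjusted p-values were 0.0556 to 0.169 for Orc2 and 0.0736 to 0.224 for Cdc6. The direction could not change in these fits, as the groups did not overlap. Median centring lost the call of Cdc6 (adjusted p = 0.0646) and not that of Orc2.

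Of 17 genes that turn the loaded ring into a helicase, none passed in limma in either direction, and 11 had an unadjusted p under 0.05, all lower. Their median was -0.44, with 16 below 0 and 9 whose groups did not overlap. Farthest from 0 were -0.69 for Cdc45, the helicase partner of the ring (adjusted p = 0.0698; 7.76, 7.85 and 7.66 against 7.06, 6.91 and 7.24), and -0.61 for the cyclin gene Ccne2 (adjusted p = 0.451, overlapping groups). Of 25 genes of the replication fork, again none passed, and 20 had an unadjusted p under 0.05, all lower. Their median was -0.44, with 24 below 0 and 17 without overlap between groups, and the largest sizes were -0.70 for the checkpoint adaptor gene Clspn and -0.66 for Rpa2, a subunit of the single-strand binding protein (adjusted p = 0.131 and 0.0885).

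Of 16 mitosis genes read, outside DNA replication, none passed and 13 had an unadjusted p under 0.05, all lower. All 16 were below 0, their median was -0.45, and the groups were separate in 7. The kinase gene Ttk had -0.65 and the survivin gene Birc5 -0.60 (adjusted p = 0.301 and 0.135). The 6 Mcm genes at their brightest probe sets had a median of -0.66. The difference between this and the medians of the other lists was not tested. In RNA from whole cultures, fewer cycling cells and less Mcm RNA per cycling cell cannot be told apart.

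**Figure D4:**
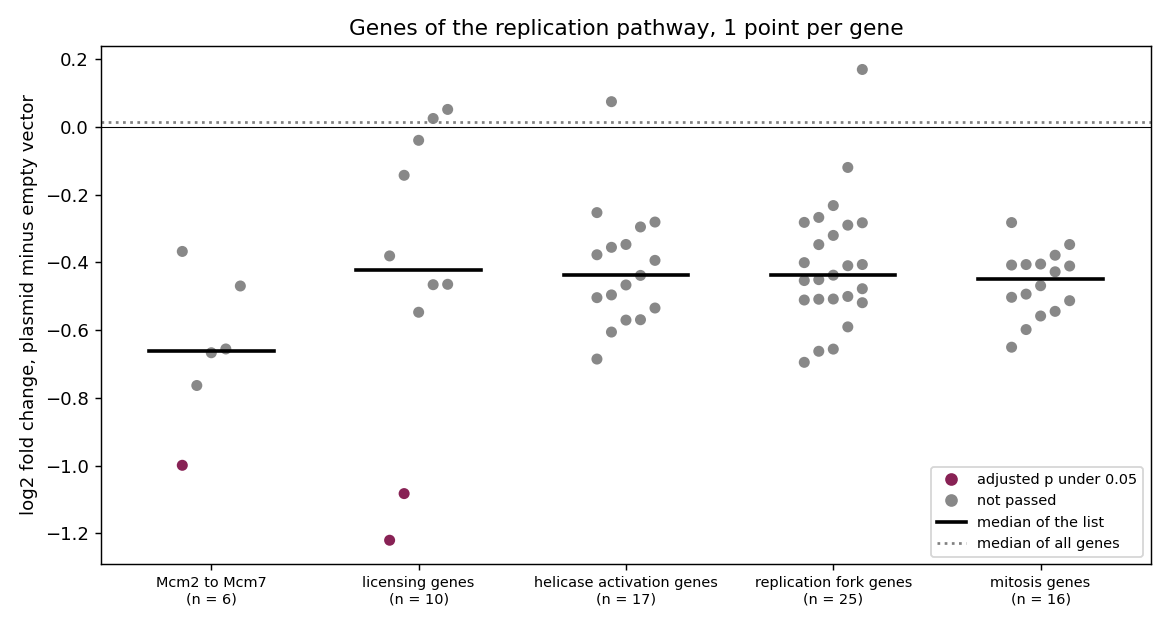
Log2 fold change (miR-124a-2 plasmid minus empty vector) of each gene at its brightest probe set, for Mcm2 to Mcm7 and for lists of licensing, helicase activation, replication fork and mitosis genes; purple points had an adjusted p under 0.05 in limma, and black bars are medians. The medians of the 5 lists lie between -0.66 and -0.42, below the median of all genes (0.015).

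MCM-domain genes outside the ring did not pass. Mcm8, which acts with Mcm9 in homologous recombination, read 6.93, 7.23 and 7.25 against 6.90, 6.46 and 7.01, with overlapping groups (-0.34, adjusted p = 0.669). The brightest of 4 Mcm9 probe sets read 6.31, 6.47 and 6.33 against 5.89, 5.16 and 6.14, without overlap (-0.64 ± 0.23, adjusted p = 0.452). The 3 others had -0.10 to -0.010 and overlapping groups. No probe set of Mcmdc2 was matched.

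Of the genes beside a member, 3 could be read, and none passed in limma or had an unadjusted p under 0.05. Ap4m1, a subunit of an adaptor complex of vesicle transport, starts within 1 kb of Mcm7 on the opposite strand. It read 6.45, 6.60 and 6.50 with the empty vector and 6.74, 6.85 and 6.50 with the plasmid, and 0.18 ± 0.11 did not pass (adjusted p = 0.812). Prkdc, the catalytic subunit of a DNA repair kinase, lies within 1 kb of Mcm4 in the RefSeq gene table, which gives no strand. It read 5.77, 6.03 and 6.10 against 5.91, 5.86 and 6.28 (0.05, adjusted p = 0.979). Cops6, a subunit of the COP9 signalosome, lies within 1 kb of Mcm7 in that table. At its brighter probe set it read 10.50, 10.72 and 10.67 against 10.56, 10.71 and 10.69 (0.03, adjusted p = 0.988), and the other had 0.03 (adjusted p = 0.984). In all 3 genes the groups overlapped, and the difference from their Mcm neighbour was not tested.

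The labels and cells were checked as well. Ptbp1, a known miR-124 target, changed by -1.24 ± 0.12 (adjusted p = 0.0180) at its brightest probe set, whereas its 2 others did not pass (0.07 and -0.27). That call too was lost without any 1 array other than plasmid replicate 3 (log2 fold changes of -1.26 to -1.14, adjusted p = 0.0566 to 0.169), fits in which 0 or 12 of all probe sets passed. Of 14 catecholaminergic and neuronal markers read, 10 had a mean of at least 6, among them Dbh, Phox2a and Hand2. Th was among them at 6.32 with the empty vector. The others, Ddc, Gata3, Slc18a1 and Slc18a2, were dim (5.23, 5.28, 4.95 and 3.99 with the empty vector). None of the 14 markers passed in limma, with 4 at an unadjusted p under 0.05, all higher. The markers are genes at 1 probe set each. Of all 45101 probe sets, each on its own, 1543 were higher at that threshold, and the share of genes was not counted. Markers of other cells were dim: a mean of at least 6 was reached by none of 6 fibroblast, none of 5 glial, 1 of 4 macrophage and none of 3 endothelial genes, and none of these 18 had an adjusted or unadjusted p under 0.05. The mean level of each of these 4 lists on any array lay between 4.20 and 5.23 in the empty vector group and 4.22 and 5.23 in the plasmid group. With 3 arrays a group, precision is limited by their number.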

How the data were processed

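RNA of 6 cultures was labelled with biotin and hybridised to Affymetrix arrays, per the labels' protocols. For each probe set the authors deposited a log2 value; RMA is the method in the submitters' processing notes, while its version, probe definitions and filters are not given in the sources used here. No further normalization was applied. Probe sets were named from the platform annotation: 34958 had 1 gene, 932 several and 9211 were not listed; no probe set of several genes named a member.

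The fit used limma 3.58.1 (R 4.3.3; lmFit, then eBayes, two-sided, without a block) over all 45101 probe sets, with Benjamini-Hochberg adjustment and a threshold of 0.05. Adjusted p-values without another source are from this fit. In lists, a gene was read at its probe set with the highest mean. Named genes are all member probe sets, paralogs, neighbours (Cops6 was added after values were seen), Ptbp1, the 6 genes of most similar profile, and for each list the called genes with the lowest adjusted p, at most 3 (where under 2 passed, the 2 largest changes). Members, lists, motifs and array sets were chosen with earlier results of these data known. Alternatives were blocks, left-out arrays, other normalizations, a filter at a mean of 6, other variance models, 1 value per gene and other thresholds.

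On simulated data for this comparison (45101 probe sets, 20 draws, 200 changed) the fit recovered 9.5% of changes of 0.5, 64.4% of 1, 87.6% of 1.5 and 94.1% of 2 on the log2 scale, and 4.08% of its calls were false. Same-numbered arrays deviated together with r = 0.58, 0.026 and 0.56 over probe sets, which does not settle whether they are pairs. Replicate numbers were not taken as pairs in the fit reported. Promoter windows are RefSeq's (GRCm38.p6). The sequence of miR-124 is not printed, as it was not used here.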

Additional observations from a re-analysis of the deposited data

How the results depend on the processing

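In the 11 alternatives that could alter fold changes of the 19 Mcm probe sets, all 209 values were below 0 (the 7 others keep the reported values by construction). Most of these signs were fixed in advance. For the 17 probe sets whose groups did not overlap, neither leaving out arrays nor the array set as a block can change the sign. No Mcm probe set was called higher, while the number called lower moved from 2 to between 0 and 10. The replicate block took same-numbered arrays as pairs. It gave 10 Mcm probe sets lower and 4 Mcm genes lower at their brightest probe sets (1, Mcm2, in the fit reported). Over all probe sets it gave 498 lower and 175 higher (94 and 27 reported). It also gave 2 helicase activation and 2 fork genes lower (0 reported). Same-numbered arrays deviated together for replicates 1 and 3 (r = 0.58 and 0.56) but hardly for replicate 2 (r = 0.026). Whether the numbers pair the arrays was not settled. The array set as a block gave 6 probe sets, 3 genes, 311 lower and 198 higher in all, 2 activation, 2 fork and 1 mitosis gene. The arrays divided by the mean of the poly-A spike-in control probe sets (both replicate 1 arrays at 5.96 and 5.97, the rest at 5.57 to 5.71; no label names such a batch), as a block, gave 5, 3, 245, 94, and 1 activation and 1 fork gene. Leaving out 1 array gave 0 to 6 Mcm probe sets, 0 to 3 Mcm genes, 0 to 323 lower and 0 to 29 higher in all, 0 to 2 licensing and 0 to 1 activation, fork or mitosis genes in limma, the 6 being without plasmid replicate 3; at an unadjusted p under 0.05 these fits held 16 to 18 Mcm probe sets and 2309 to 5514 in all. Replicates 2 and 3 alone, added after seeing the data, gave 0 for all of these, licensing included (16 Mcm probe sets, 6 licensing genes and 3732 in all at an unadjusted p under 0.05), as did an adjusted p under 0.01, where 18 Mcm probe sets, 6 licensing genes and 3688 in all had an unadjusted p under 0.05. An adjusted p under 0.1 gave 6 Mcm probe sets, 3 genes, 229 lower, 72 higher, 2 activation and 1 fork gene. Median centring gave 0 Mcm probe sets and genes (17 probe sets at an unadjusted p under 0.05), 27 lower, 12 higher and 1 licensing gene, Orc2. Quantile normalization gave 4 Mcm probe sets, 2 genes, 202 lower, 60 higher, 1 activation and 2 fork genes. Cyclic loess gave 4, 2, 192, 52, 2 and 1. Testing only probe sets with a mean of at least 6 gave 4, 2, 170, 53, 2 and 1. An intensity trend gave 7, 4, 170, 45 and 2 fork genes, and with robust estimation 8, 5, 179, 50 and 2 fork genes. The brightest probe set of each gene gave 3 Mcm, 2 activation and 1 fork gene (0.698% of all genes lower), and the mean of probe sets 2 Mcm and 2 fork genes. In the fit of means, 6 Mcm genes and 1832 genes in all had an unadjusted p under 0.05. Why the counts moved was not tested for any of these alternatives.

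The difference of Mcm3 from the other members changed sign with quantile normalization (0.00061) and with arrays left out (-0.061 to 0.064), and that of Mcm5 with arrays left out (-0.098 to 0.059). Changes of uncalled probe sets near 0 also changed sign. Mcm9 1430563_at had 0.017 with the array set as a block, 0.013 with quantile normalization and -0.13 to 0.060 with arrays left out, Cops6 1451367_at had -0.0085 with replicates 2 and 3 alone and -0.017 to 0.059 with arrays left out, Cops6 1451366_at -0.040 to 0.076, Mcm9 1447969_at -0.13 to 0.070, Prkdc -0.077 to 0.13 and Ptbp1 1458284_at -0.099 to 0.23 with arrays left out and -0.089 with the array set as a block. By signal, 3 of the 19 Mcm probe sets had a mean under 6, and these bear least weight.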
